A study of Mus musculus with 6 samples.

Results

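The genes described here are 39 genes of glycolysis and of the response to low oxygen, taken by symbol from a table of read counts and FPKM (read counts scaled by gene length and library size) with 54532 genes. Aldoa stands on 2 rows of that table, so the 39 symbols gave 40 rows, and all 40 passed the filter on low counts. They comprise 4 transporters of glucose and lactate, 18 glycolytic enzymes on 19 rows, 2 enzymes of glycogen, 2 oxygen-sensitive subunits of the hypoxia-inducible factor (HIF) and 13 genes known to be induced by hypoxia. RNA was sequenced from neurospheres, floating colonies grown from neural progenitors, of C57BL/6 mouse embryos at E14.5. The 3 wild type libraries (WT 3, WT 6 and WT 7) were compared with 3 libraries from embryos with a conditional knockout of Ash2l (KO 1, KO 2 and KO 3), a core subunit of the COMPASS histone H3 lysine methyltransferases. The knockout was made with D6-Cre, a Cre recombinase active in the dorsal forebrain, and the share of cells that had recombined is not given in the labels. All 6 cultures were taken on day 6 in medium with EGF and bFGF, each at 20 ng/ml, 2% B27 and 0.2% BSA. The labels give the dorsal cortex as the source in one field and the walls of the lateral ventricles in another, and they do not say whether each library came from its own embryo or culture, so p-values measure only the spread between these libraries.

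Glycolysis breaks glucose down to pyruvate in the cytoplasm. Glucose enters through GLUT transporters, and lactate, made from pyruvate by lactate dehydrogenase, leaves through monocarboxylate transporters. When oxygen is low, prolyl hydroxylases stop marking the HIF alpha subunits for destruction, and HIF with its partner ARNT binds a short core sequence near its target genes, among them most glycolytic genes. HIF alpha is regulated mainly at the protein level, which RNA counts do not measure. Proliferating neural progenitors and astrocytes are both known for high glycolysis, and several steps have isozymes that differ between cell types, such as Aldoc and Pygb in astrocytes.

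The promoters of 4 genes are shown because these genes passed the test, Eno1, Ldha and Adm with more reads in KO and Ldhb with fewer, and because no exon of GENCODE M21 overlaps the bases printed. Each is the 250 bases before a RefSeq start on GRCm38.p6, 5′ to 3′ along the gene, for Eno1 at chr4:150236458-150236707 and for Ldha at chr7:46845554-46845803, both on the plus strand. That of Adm lies at chr7:110627407-110627656 on the plus strand and that of Ldhb at chr6:142507958-142508207 on the minus strand. Capitals mark the core of the hypoxia response element, ACGTG or GCGTG, read on either strand and so also as CACGT or CACGC, with overlapping matches counted as 1 place.
Eno1: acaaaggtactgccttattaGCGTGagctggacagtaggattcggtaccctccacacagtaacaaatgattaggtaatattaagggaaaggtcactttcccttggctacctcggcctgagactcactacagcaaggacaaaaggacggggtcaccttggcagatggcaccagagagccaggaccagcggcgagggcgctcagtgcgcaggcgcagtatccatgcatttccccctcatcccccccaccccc
Ldha: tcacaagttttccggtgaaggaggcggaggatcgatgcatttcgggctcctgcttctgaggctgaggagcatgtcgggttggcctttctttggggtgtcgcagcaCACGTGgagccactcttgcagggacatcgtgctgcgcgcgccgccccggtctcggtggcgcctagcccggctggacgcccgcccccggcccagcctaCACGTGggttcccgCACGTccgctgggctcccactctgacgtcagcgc
Adm: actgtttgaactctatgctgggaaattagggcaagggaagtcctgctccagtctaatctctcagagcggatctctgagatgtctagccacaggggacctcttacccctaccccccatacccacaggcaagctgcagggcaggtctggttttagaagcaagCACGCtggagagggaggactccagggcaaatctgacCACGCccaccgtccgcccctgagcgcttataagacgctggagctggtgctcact
Ldhb: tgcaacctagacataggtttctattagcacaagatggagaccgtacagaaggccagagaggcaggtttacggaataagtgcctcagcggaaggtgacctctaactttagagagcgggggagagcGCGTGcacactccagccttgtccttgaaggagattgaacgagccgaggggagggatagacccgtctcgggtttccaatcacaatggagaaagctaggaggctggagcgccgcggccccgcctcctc
The printed Ldha promoter held the core at 3 places, of which those at 145 to 140 and at 48 to 43 bases before the start read the same on both strands (CACGTG). The printed promoter of Adm held it at 2 places, and those of Eno1 and Ldhb at 1 place each. Eno1 has 3 RefSeq windows and Ldha 2, of which only the first listed is printed. In the window of 300 bases with the most places, Eno1 held the core at 2 and Ldha at 5. Of the 39 symbols, 36 had an entry in the promoter table, and 32 of these (88.9%) held the core within the 300 bases around a start. The core is short, and 46.7% of the 27025 genes in the table and 66.6% of the 11509 tested genes with an entry held it. The median GC content was 62.2% for the 36 genes, 52.8% for all genes in the table and 61.0% for the tested genes. All 6 member genes that rose in KO and all 4 that fell held the core, so its presence did not separate the directions. All 12 hypoxia targets with an entry held it, and so did 15 of the 18 enzymes. A match is only a match of letters, and binding of HIF was not measured.

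The library WT 3 stood apart from WT 6 and WT 7 in these genes, and so did KO 1 from KO 3. WT 3 had the highest normalised count of the 3 WT libraries in 30 of 40 rows (75.0%), against 40.6% of all 16606 tested genes. KO 3 was the highest of the KO libraries in 30 rows (75.0%), against 36.0% of all genes, and KO 1 the lowest in 36 rows, against 34.4% of all genes. Both WT 3 and KO 3 led their group in 27 rows (67.5%), where 17.3% of all tested genes did so. The median fold of WT 3 over the mean of WT 6 and WT 7 was 1.64 over the members and 0.992 over all genes, and that of KO 3 over KO 1 was 1.74 against 1.003. WT 3 exceeded KO 1 in 28 of the 40 rows, against 8271 of all 16606 tested genes.

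Cell type markers moved with genotype and, in part, with WT 3. The summed FPKM of 10 astrocyte markers was 655 in WT 3, 1842 in WT 6 and 1949 in WT 7, and from 218 to 403 in the KO libraries. Gfap, the defining astrocyte filament, was at 176 FPKM in WT 3, 862 in WT 6, 838 in WT 7, and from 16.96 to 45.5 in KO. The sum of 10 proliferation genes was 87.0 in WT 3, 58.9 in WT 6, 59.1 in WT 7 and from 416 to 562 in KO, and that of 10 neuron markers was 736 in WT 3, 338 in WT 6, 264 in WT 7 and from 903 to 1265 in KO. Within each group, most of the 10 oligodendrocyte lineage markers ranked the libraries as the members did. Both WT 3 and KO 3 were highest in their group in 7 of 10 (70.0%), and KO 1 was lowest of KO in 8 of 10. Between the groups the list moved the other way, with a median log2 fold change of -2.38 against 0.66 for the members. Its summed FPKM was 1265 in WT 3, 1140 in WT 6 and 1149 in WT 7, against 481 for KO 1, 884 for KO 2 and 701.5 for KO 3. By this sum KO 2 and not KO 3 was the highest KO library. Olig1 and Olig2, with log2 fold changes of -0.11 and -0.02, made up most of the sum in KO. Olig1 was at 277, 540 and 368 FPKM in KO 1, 2 and 3, and Olig2 at 170, 296 and 232. Counted by gene, KO 3 was the highest KO library in 8 of the 10 markers. By edgeR's quasi-likelihood test, 7 of 10 astrocyte markers fell, 6 of 10 oligodendrocyte lineage markers fell, 3 of 10 neuron markers rose and 10 of 10 proliferation genes rose. The share of neuron markers that passed (30.0%) was near the 29.0% of all tested genes. Those that rose, Syp, Stmn3 and Gap43, each passed in 1 of the 6 fits that left out 1 library. Of the neuron markers, 8 had a log2 fold change above 0, while Map2 (-0.26) and Rbfox3 (-0.14) were below 0 and did not pass. Endothelial markers summed to 0.384 to 1.05 FPKM and erythroid genes to 0.182 to 1.02, with Hbb-bt at 0 in all libraries. KO 1 was the highest library for 2 further lists: mural and fibroblast markers summed to 61.4 FPKM in KO 1, 14.9 in KO 2, 21.0 in KO 3 and from 8.29 to 11.4 in WT. Cspg4, which is also among the oligodendrocyte lineage markers, made up most of this sum outside KO 1. It was at 4.13 FPKM in KO 1, 10.2 in KO 2, 11.9 in KO 3 and from 4.45 to 8.09 in WT. Microglia and macrophage markers summed to 16.5 FPKM in KO 1, 2.36 in KO 2, 2.41 in KO 3 and from 1.41 to 5.57 in WT. The part of cell makeup in the results below was not tested, and in bulk RNA fewer cells of a type and less RNA per cell cannot be told apart. Ash2l itself was at 13.1, 12.1 and 11.7 FPKM in WT 3, 6 and 7, against 9.96, 11.3 and 11.4 in KO 1, 2 and 3. These groups did not overlap, but the difference did not pass the test (log2 fold change -0.24, adjusted p = 0.119), and since the labels do not name the deleted part of the gene, its counts do not check the labels.

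**Figure D1:**
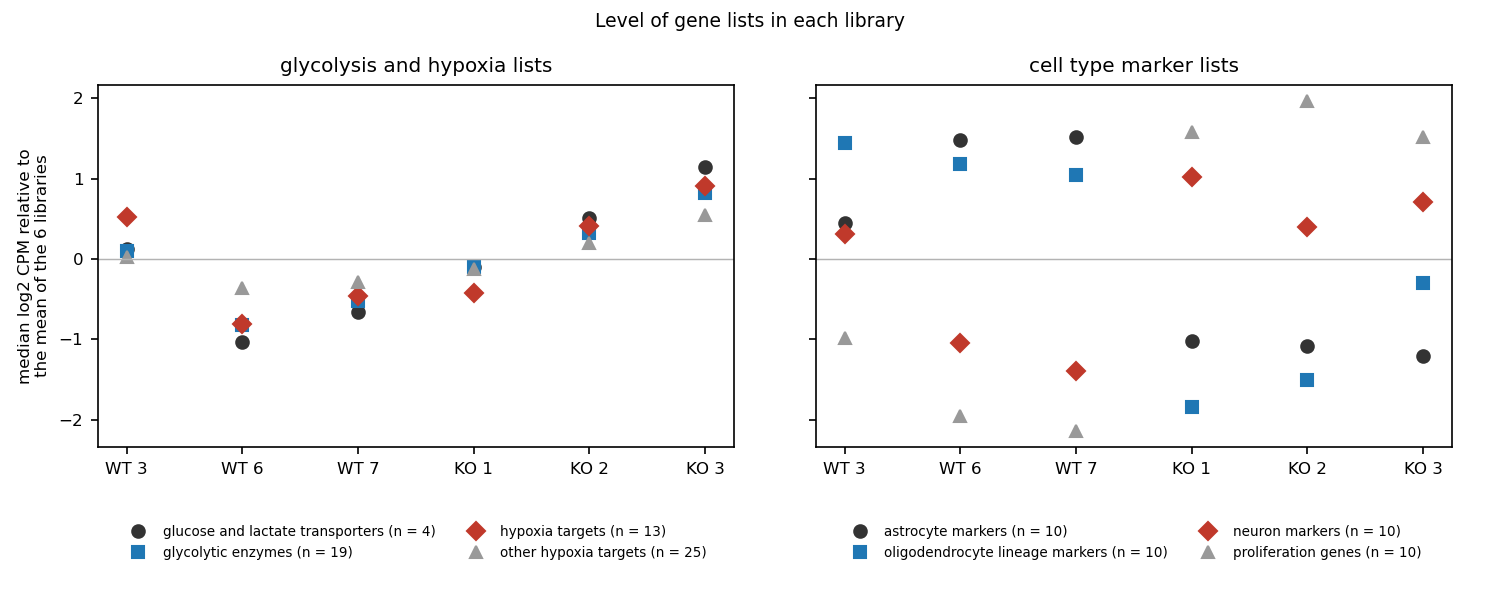
Median log2 CPM (counts scaled by library size, with 0.5 added) of each gene list in each library, relative to the mean of the 6 libraries, for the glycolysis and hypoxia lists (left) and for cell type marker lists (right). In the hypoxia targets WT 3 lies at 0.53, above KO 1 at -0.42, while the proliferation genes are below 0 in all 3 WT libraries and above 0 in all 3 KO libraries.

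Of the 40 rows, 10 (25.0%) passed an adjusted p of 0.05 in edgeR's quasi-likelihood test, 6 higher and 4 lower in KO. Among all tested genes 29.0% passed, 13.5% higher and 15.5% lower, so the share among the members was near that of the table. Genes that rose were Slc16a1, Eno1, Pkm, Ldha, Car9 and Adm, and genes that fell were Aldoc, Ldhb, Pygb and Mxi1. The log2 fold change was above 0 in 31 rows and below 0 in 9, with a median of 0.66 against 0.00 over all tested genes. WT and KO libraries did not overlap in 17 rows (42.5%), against 48.6% of all genes. Without WT 3, the 10 genes all passed and 17 further rows did, 16 of them higher and 1 lower in KO, and the median was 1.03. Then 38.2% of all genes tested passed. Other libraries moved the count of 10 the other way, to 5 without WT 6, 6 without WT 7 and 6 without KO 2, while it was 14 without KO 1 and 9 without KO 3. Among all genes, 2178 of 16998 tested passed without WT 6, 2449 of 17006 without WT 7 and 2516 of 17254 without KO 2. The count over all genes was 2889 of 17159 without KO 1 and 4266 of 16986 without KO 3.

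**Figure D2:**
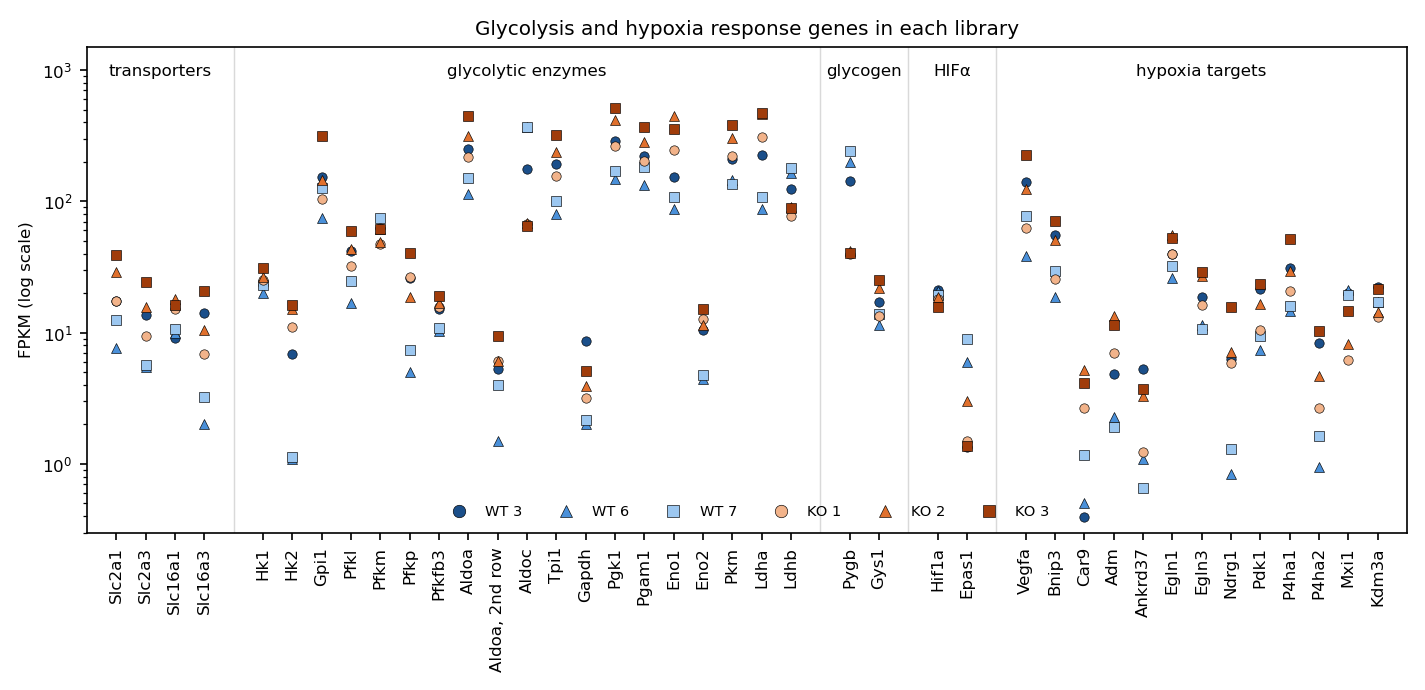
FPKM of each member row in each library on a log axis, 1 point per library (WT blue, KO orange to brown), grouped by role. For Aldoc and Pygb all WT points lie above all KO points, for Eno1 and Ldha all KO points lie above, and for most hypoxia targets WT 3 lies among or above the KO points.

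Among the transporters, 1 of 4 rose and 0 fell (25.0% passed, against 29.0% of all tested genes). Slc16a1 encodes MCT1, a transporter of lactate and pyruvate that is widely expressed. It was at 9.13 FPKM in WT 3, 9.96 in WT 6 and 10.6 in WT 7, and at 15.0 in KO 1, 17.9 in KO 2 and 16.1 in KO 3. Every KO library was above every WT library, the change was 1.58-fold (log2 fold change 0.66, SE 0.12, edgeR adjusted p = 0.00985), and it passed in each of the 6 fits that left out 1 library.

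The other 3 transporters differed as much or more in size but did not pass the edgeR test with all libraries. Slc2a1 encodes GLUT1, the main basal glucose transporter, and was at 17.3, 7.68 and 12.5 FPKM in WT 3, 6 and 7, against 17.5, 28.8 and 39.2 in KO 1, 2 and 3. Its lowest KO library was level with WT 3, so that the log2 fold change of 1.15 (SE 0.36) had an edgeR adjusted p of 0.0532. With all libraries Slc2a1 passed under the alternatives of RLE scaling, no filter, DESeq2 and limma-voom. Slc2a3, the high-affinity glucose transporter GLUT3 of neurons, ran from 5.45 to 13.6 FPKM in WT and from 9.44 to 24.5 in KO. Slc16a3 encodes MCT4, which exports lactate from highly glycolytic cells, and was at 14.1 in WT 3, 2.01 in WT 6, 3.24 in WT 7, 6.92 in KO 1, 10.5 in KO 2 and 20.9 in KO 3. WT 3 was thus above KO 1 and KO 2, and the edgeR adjusted p was 0.342. Of the alternatives with all libraries, Slc2a3 and Slc16a3 passed only under limma-voom. Without WT 3, the log2 fold changes were 1.42 for Slc2a1, 1.49 for Slc2a3 and 2.20 for Slc16a3, and all 3 passed. Without KO 3 they were 0.85, 0.57 and 0.42, and none of the 3 passed (adjusted p = 0.132, 0.368 and 0.715). Without WT 6 that of Slc16a3 was 0.54.

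The glycolytic enzymes had 3 of 19 rows higher and 2 lower in KO (26.3%, against 29.0% of all tested genes). Without WT 3 there were 12 higher and 2 lower, where 38.2% of all genes passed. The count of 5 was 3 without WT 6, without WT 7 or without KO 2, fits in which the count over all genes fell too. The first steps trap glucose as a phosphate and commit it to glycolysis. Hk2, the inducible hexokinase of proliferating and hypoxic cells, was at 6.83 FPKM in WT 3, 1.10 in WT 6 and 1.12 in WT 7, and at 11, 15.1 and 16.3 in KO 1, 2 and 3. All KO libraries were above all WT libraries, and WT 3 lay between WT 6 and the KO group. The 4.62-fold difference (log2 fold change 2.21, SE 0.70) had an edgeR adjusted p of 0.0532 with all libraries and of 0.000106 without WT 3, where the log2 fold change was 3.58. With all libraries Hk2 passed under RLE scaling, no filter, DESeq2, limma-voom and limma on log2(FPKM + 1) or log2(FPKM + 0.1). It did not pass with library totals alone or with the filter of 1 CPM in 3 libraries. Hk1, the constitutive hexokinase of brain, differed by a log2 fold change of 0.26 and did not pass (adjusted p = 0.145).

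Gpi1, which turns glucose phosphate into fructose phosphate, was at 152, 75.3 and 126 FPKM in WT 3, 6 and 7, against 105, 145 and 315 in KO 1, 2 and 3, and the groups overlapped. The 3 phosphofructokinase genes, which encode the committing step, did not pass. Pfkm, the muscle type, was at 62.6, 61.8 and 74.4 FPKM in WT 3, 6 and 7, against 47.2, 49.2 and 61.5 in KO 1, 2 and 3. Each KO library was below each WT library, KO 3 only narrowly, and the log2 fold change of -0.39 (SE 0.15) had an edgeR adjusted p of 0.0924. Pfkl and Pfkp, the liver and platelet types, had log2 fold changes of 0.65 and 1.13, and without WT 3 these were 1.03 and 2.13 and passed. The spans of Pfkm and Pfkp overlap Senp1 and Pitrm1 on the opposite strand, and shared reads were not measured. Pfkfb3, which makes the activator fructose 2,6-bisphosphate, had a log2 fold change of 0.45 (adjusted p = 0.0728), and 0.61 without WT 3, which passed.

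Of the aldolases, which split the phosphorylated sugar into triose phosphates, Aldoc fell and Aldoa did not pass. Aldoc, the aldolase of astrocytes and other brain cells (chr11:78322968-78327781), was at 175 FPKM in WT 3, 369 in WT 6 and 370 in WT 7, and at 66.7 in KO 1, 68.5 in KO 2 and 65.0 in KO 3. The KO libraries lay close together and below every WT library, of which WT 3 was the lowest, as it was for Gfap. Aldoc fell 4.80-fold (log2 fold change -2.26, SE 0.31, edgeR adjusted p = 0.00368) and passed without each library in turn. The 10 astrocyte markers all had a log2 fold change below 0, and 7 of them fell. Slc1a3 (-0.51), Aldh1l1 (-0.88) and Sparcl1 (-1.77) did not pass, and their groups overlapped. WT 3 was the highest WT library in 1 of the 10, S100b, at 19.0, 11.4 and 8.77 FPKM in WT 3, 6 and 7, unlike Aldoc. The part of these markers in the result was not tested. Aldoa, the form found in most tissues, was at 251, 115 and 152 FPKM in WT 3, 6 and 7, against 218, 313 and 449 in KO 1, 2 and 3. WT 3 was above KO 1, and the log2 fold change of 0.88 (SE 0.35) did not pass (adjusted p = 0.0988), while without WT 3 it was 1.21 and passed. The second row of the same symbol, just upstream at chr7:126800790-126809108, ran from 1.51 to 9.47 FPKM and did not pass.

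Tpi1, Pgk1 and Pgam1, which encode middle steps of the pathway, did not pass. Tpi1 was at 194, 79.6 and 101 FPKM in WT 3, 6 and 7, against 156, 239 and 321 in KO 1, 2 and 3. Pgk1, which makes the first ATP of the pathway, was at 287, 148 and 170 in WT 3, 6 and 7, against 264, 420 and 512 in KO 1, 2 and 3. Pgam1, the phosphoglycerate mutase of brain, was at 223, 132 and 182 in WT 3, 6 and 7, against 203, 282 and 370 in KO 1, 2 and 3. In all 3 genes WT 3 exceeded KO 1 and the other 2 WT libraries were below every KO library. Their edgeR adjusted p-values were 0.114 for Tpi1, 0.0654 for Pgk1 and 0.116 for Pgam1. Without WT 3, Tpi1 and Pgk1 passed, with log2 fold changes of 1.32 and 1.25, and Pgam1 did not (0.78, adjusted p = 0.0622). Gapdh, the dehydrogenase between these steps, had only 172 to 628 reads in a library, the highest in WT 3. It has many near copies in the genome and its span overlaps Iffo1, so its values (2.00 to 8.64 FPKM, log2 fold change -0.10, adjusted p = 0.909) are uncertain, and the sign turned without WT 3 (0.88) and under 4 further settings.

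Eno1 and Pkm, which encode the last steps to pyruvate, rose. Eno1, the ubiquitous enolase (chr4:150236721-150248879), was at 154 FPKM in WT 3, 88.1 in WT 6 and 108 in WT 7, and at 246 in KO 1, 450 in KO 2 and 358 in KO 3. All KO libraries were above all WT libraries, and the 2.90-fold rise (log2 fold change 1.54, SE 0.29, edgeR adjusted p = 0.00961) passed without each library in turn. Eno1b, a near copy of Eno1 with 274 to 944 reads, also rose (log2 fold change 1.39, edgeR adjusted p = 0.00503), and how reads were shared between the copies was not measured. Eno2, the neuronal enolase, had a log2 fold change of 0.96 (adjusted p = 0.0643) with groups that did not overlap. Pkm, the pyruvate kinase of brain and dividing cells, was at 209, 144 and 135 FPKM in WT 3, 6 and 7, against 220, 302 and 382 in KO 1, 2 and 3. KO 1 was just above WT 3, and the 1.79-fold rise (log2 fold change 0.84, SE 0.26, edgeR adjusted p = 0.0473) did not pass without WT 6, WT 7, KO 2 or KO 3, where the highest adjusted p was 0.1501. Its M1 and M2 forms are splice forms of the same gene and are not separated by gene counts.

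The lactate dehydrogenase genes moved in opposite directions. Ldha, whose product favours making lactate from pyruvate (chr7:46841475-46855627), was at 227 FPKM in WT 3, 86.9 in WT 6 and 108 in WT 7, and at 307 in KO 1, 467 in KO 2 and 474 in KO 3. No WT library reached the KO range, and WT 3 was above the other WT libraries. The rise was 2.88-fold (log2 fold change 1.52, SE 0.37, edgeR adjusted p = 0.0231); it did not pass without WT 6, WT 7, KO 2 or KO 3 (adjusted p up to 0.0801), and without WT 3 the log2 fold change was 2.01. Ldhb, whose product favours turning lactate back to pyruvate (chr6:142490249-142507957), was at 125 FPKM in WT 3, 164 in WT 6 and 181 in WT 7, and at 78.0 in KO 1, 90.4 in KO 2 and 88.8 in KO 3. Here the KO libraries were all below the WT libraries, and WT 3 was again the WT library nearest to KO. The fall was 1.91-fold (log2 fold change -0.94, SE 0.17, edgeR adjusted p = 0.00929) and passed without each library in turn.

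**Figure D3:**
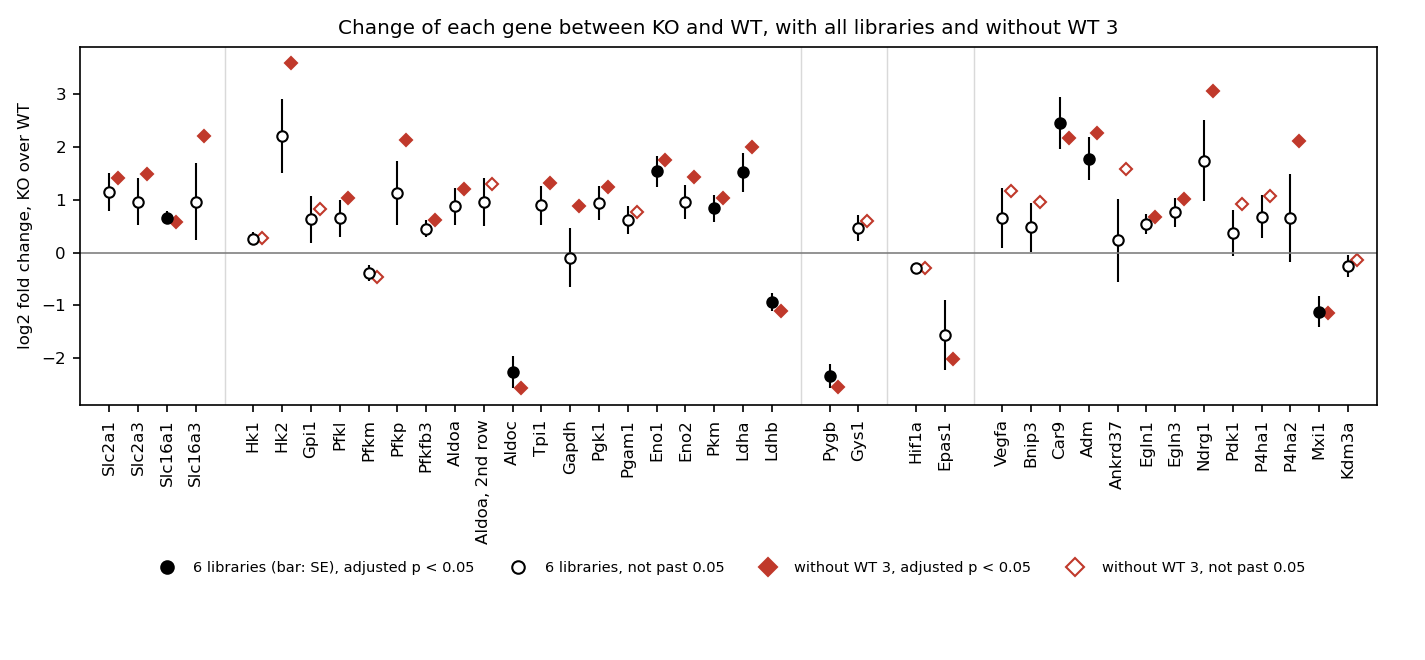
Log2 fold change of KO over WT for each member row with all 6 libraries (circles, bar: SE) and without WT 3 (diamonds), filled where the edgeR adjusted p was under 0.05. The 10 filled circles include 6 above and 4 below 0, and without WT 3 most transporters and enzymes lie further from 0.

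Because FPKM is per length, levels of isozymes can be set side by side, and 8 sets were compared. Aldoc made up 41.1% of the aldolase FPKM (Aldoa and Aldoc) in WT 3, 76.3% in WT 6 and 70.9% in WT 7, and 23.4%, 17.97% and 12.7% in KO 1, 2 and 3. Its mean share was 62.7% ± 18.9 in WT and 18.01% ± 5.38 in KO (SD, n = 3 each, exact permutation p = 0.1, adjusted over the 8 sets 0.2). The sum of both aldolases ran from 426 to 522 FPKM in WT and from 285 to 514 in KO, so that the groups overlapped in the sum but not in the share. Ldhb made up 35.6%, 65.4% and 62.6% of the lactate dehydrogenase FPKM in WT 3, 6 and 7, against 20.2%, 16.2% and 15.8% in KO 1, 2 and 3. Its mean share was 54.5% ± 16.5 in WT and 17.4% ± 2.47 in KO (SD, n = 3 each, exact permutation p = 0.1, adjusted 0.2), while the sum ran from 251 to 352 FPKM in WT and from 385 to 563 in KO.

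The share of Hk2 among the hexokinases Hk1 and Hk2 was 10.8% ± 10.3 in WT and 33.6% ± 2.99 in KO (SD, n = 3 each, exact permutation p = 0.1, adjusted 0.2). Pfkm held 63.9% ± 13.9 of the phosphofructokinase FPKM in WT and 42.3% ± 3.71 in KO (SD, n = 3 each, exact permutation p = 0.1, adjusted 0.2). In these 4 sets the groups did not overlap, and 0.1 is the smallest p that 3 libraries against 3 can give in a two-sided test. In each of them WT 3 was the WT library nearest to the KO values. The shares of Eno2, Slc2a3, Slc16a3 and Epas1 overlapped between the groups, with exact permutation p-values from 0.4 to 0.6. In the order of mean levels, Aldoc was the highest of all members in WT at 305 ± 112 FPKM, followed by Pgk1 at 202 ± 74.9 (SD, n = 3 each), and these overlapped. In KO the highest was Ldha at 416 ± 94.5, followed by Pgk1 at 399 ± 126 and Eno1 at 351 ± 102 (SD, n = 3 each), and their ranges overlapped. Ldha was above Eno1 in each KO library, and differences between genes were not tested.

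**Figure D4:**
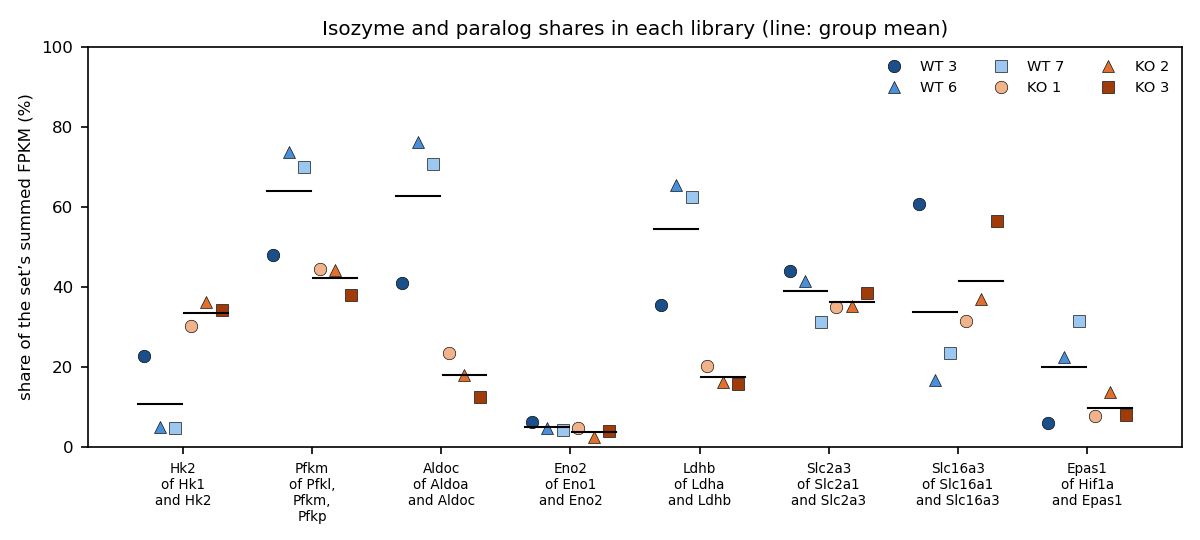
Share of each isozyme or paralog in the summed FPKM of its set, 1 point per library, with a line at each group mean. The groups are apart for Hk2, Pfkm, Aldoc and Ldhb, and WT 3 is the WT point nearest to KO in each of these.

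Of the glycogen enzymes, Pygb fell and Gys1 did not pass. Pygb, the brain glycogen phosphorylase that releases glucose units from glycogen (chr2:150786735-150831758), was at 143 FPKM in WT 3, 201 in WT 6 and 243 in WT 7, and at 40.0 in KO 1, 42.1 in KO 2 and 40.2 in KO 3. The KO values were nearly alike and far below every WT library, with WT 3 the lowest of the WT group, as for Aldoc and Gfap. The fall was 5.03-fold (log2 fold change -2.33, SE 0.22, edgeR adjusted p = 0.00148) and passed without each library in turn. Gys1, the glycogen synthase of tissues other than liver, ran from 11.4 to 17.1 FPKM in WT and from 13.4 to 25.2 in KO, and its span overlaps Ruvbl2 on the opposite strand.

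Neither HIF alpha subunit passed. Hif1a was at 21.2, 20.8 and 19.3 FPKM in WT 3, 6 and 7, against 17.9, 18.8 and 15.6 in KO 1, 2 and 3. The KO libraries were all below the WT libraries, by a log2 fold change of -0.29 (SE 0.10, edgeR adjusted p = 0.0710). Epas1, which encodes HIF2 alpha, was at 1.34, 6.02 and 8.88 FPKM in WT 3, 6 and 7, against 1.49, 3.00 and 1.37 in KO 1, 2 and 3. WT 3 was here in the KO range; the log2 fold change was -1.55 (adjusted p = 0.117) with all libraries, and without WT 3 it was -2.02 and passed.

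Of the 13 hypoxia targets 2 rose and 1 fell (23.1%, against 29.0% of all tested genes). Without WT 3 there were 6 higher and 1 lower, where 38.2% of all genes passed. The count of 3 was 0 without WT 6, 1 without WT 7 and 1 without KO 2. Over all genes the count fell too, to 2178 of 16998, 2449 of 17006 and 2516 of 17254 in these fits. KO 1 was the lowest KO library in all 13, WT 3 the highest WT library in 11, and WT 3 was 2.05-fold above the mean of WT 6 and WT 7 in the median. Car9, a carbonic anhydrase of the cell surface that regulates pH, was at 0.395 FPKM in WT 3, 0.502 in WT 6 and 1.165 in WT 7, and at 2.67 in KO 1, 5.22 in KO 2 and 4.11 in KO 3. All KO libraries were above all WT libraries, and WT 3 was here the lowest of all. The rise was 5.50-fold (log2 fold change 2.46, SE 0.49, edgeR adjusted p = 0.0122) and narrowly failed without WT 6 (adjusted p = 0.0539).

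Adm encodes adrenomedullin, a secreted vasodilator peptide. It was at 4.85 FPKM in WT 3, 2.26 in WT 6 and 1.91 in WT 7, and at 6.96 in KO 1, 13.5 in KO 2 and 11.3 in KO 3. The groups did not overlap, and the 3.43-fold rise (log2 fold change 1.78, SE 0.41, edgeR adjusted p = 0.0200) did not pass without WT 6, WT 7 or KO 2 (adjusted p up to 0.0771). Mxi1, a MAX-binding antagonist of MYC, went the other way, at 20.0, 21.0 and 19.3 FPKM in WT 3, 6 and 7, against 6.23, 8.19 and 14.49 in KO 1, 2 and 3. The 3 WT values were close together, and the KO values were all lower but spread over a wide range. The fall was 2.17-fold (log2 fold change -1.11, SE 0.30, edgeR adjusted p = 0.0318) and did not pass without WT 6, WT 7, KO 1 or KO 2 (adjusted p up to 0.111).

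The target with the highest level was Vegfa, the vascular endothelial growth factor, at 140 FPKM in WT 3, 38.1 in WT 6 and 77.6 in WT 7, and at 63.0 in KO 1, 123 in KO 2 and 226 in KO 3. WT 3 was above 2 of the KO libraries, and the log2 fold change of 0.65 (SE 0.56) did not pass (edgeR adjusted p = 0.401), nor did it without WT 3 (1.17, adjusted p = 0.128). Bnip3, a mitophagy receptor, and Pdk1, a kinase that inhibits pyruvate dehydrogenase and so the entry of pyruvate to the citric acid cycle, also had WT 3 above KO 1 and KO 2, with log2 fold changes of 0.48 and 0.37 and adjusted p-values of 0.458 and 0.539. The prolyl hydroxylases Egln1 and Egln3, which sense oxygen and are HIF targets themselves, had log2 fold changes of 0.54 and 0.76 and, of the fits that left out 1 library, passed in those without WT 3 or KO 1. Ndrg1, a stress-induced gene also known from myelinating cells, was at 6.33, 0.840 and 1.31 FPKM in WT 3, 6 and 7, against 5.88, 7.13 and 15.6 in KO 1, 2 and 3. WT 3 was above KO 1, and the log2 fold change was 1.74 (adjusted p = 0.125) with all libraries and 3.07, which passed, without WT 3, and it was 1.18 without KO 3.

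The collagen prolyl hydroxylase subunits P4ha1 and P4ha2 had log2 fold changes of 0.68 and 0.66 and adjusted p-values of 0.229 and 0.565. P4ha2 was at 8.41 FPKM in WT 3, 0.950 in WT 6 and 1.63 in WT 7 and at 2.65, 4.67 and 10.2 in KO 1, 2 and 3, so that the highest library of each group was several times its lowest. Without WT 3 its log2 fold change was 2.11 and passed, and without KO 3 it was -0.01. Kdm3a, a histone H3 lysine 9 demethylase, and Ankrd37 did not pass, with log2 fold changes of -0.25 and 0.23. The span of Ankrd37 overlaps Ufsp2 and Lrp2bp on the opposite strand, and its sign turned without WT 6, WT 7 or KO 3.

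Neighbouring genes were counted in lists beside the members, and 29.0% of all tested genes passed, 13.5% higher and 15.5% lower. Of 15 tested other glycolysis genes 1 rose and 4 fell (median log2 fold change 0.07). Bpgm, which makes 2,3-bisphosphoglycerate, was at 18.04 to 23.1 FPKM in WT and 11.1 to 11.8 in KO, and fell 1.84-fold (log2 fold change -0.88, edgeR adjusted p = 0.00285). Eno3, the muscle enolase, fell 2.99-fold from 12.4 to 4.30 FPKM in the mean (adjusted p = 0.00527), opposite to Eno1, and the transporter gene Slc2a8 fell 1.65-fold (adjusted p = 0.0123) but did not pass without WT 6 or KO 1 (up to 0.0567). Of 7 genes of the pentose phosphate pathway, which diverts glucose phosphate to ribose and NADPH, 2 rose, Rpia 1.78-fold (adjusted p = 0.0135) and Tkt 1.46-fold (adjusted p = 0.0334), 0 fell, and Pgls did not pass (log2 fold change 0.35, adjusted p = 0.0511). With 1 library left out, Rpia passed in 4 of 6 fits, failing without WT 6 or WT 7 (adjusted p up to 0.0625). Tkt passed in 2 of 6, failing without WT 6, WT 7, KO 2 or KO 3 (up to 0.119).

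At the entry of pyruvate to mitochondria 3 of 13 genes rose and 2 fell. Dlat, a subunit of pyruvate dehydrogenase, was at 14.9 to 16.1 FPKM in WT and at 24.2 to 28.8 in KO, a 1.69-fold rise (log2 fold change 0.76, edgeR adjusted p = 0.00337). The kinases Pdk2 and Pdk4, which inhibit pyruvate dehydrogenase as Pdk1 does, fell 3.07-fold (adjusted p = 0.00556) and 8.65-fold (adjusted p = 0.00617). Pdk4 was at 7.62, 4.67 and 15.8 FPKM in WT 3, 6 and 7, against 0.730, 1.17 and 1.46 in KO 1, 2 and 3, and the groups did not overlap.

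Of 13 tested other glycogen genes 1 rose and 4 fell (median log2 fold change -0.40). Ppp1r3c, which targets the phosphatase PP1 to glycogen and promotes its synthesis, was at 74.4, 77.2 and 72.7 FPKM in WT 3, 6 and 7, against 9.59, 17.7 and 30.4 in KO 1, 2 and 3. It fell 4.03-fold (log2 fold change -2.01, edgeR adjusted p = 0.0105; 0.0507 without KO 2), while Phkb, a regulatory subunit of phosphorylase kinase, fell 1.68-fold (adjusted p = 0.00534). Of 6 HIF partners and oxygen sensors 0 rose and 3 fell (median -0.51). Vhl, which targets HIF alpha for destruction, was at 29.9 to 33.4 FPKM in WT and 18.9 to 21.9 in KO (log2 fold change -0.72, adjusted p = 0.00560). Arnt2, a neural partner of HIF alpha, fell 1.64-fold (adjusted p = 0.0246), and Hif1an, the asparagine hydroxylase that inhibits HIF, fell 1.24-fold (adjusted p = 0.0493), but neither held in most fits that left out 1 library: Arnt2 passed in 1 of 6 and Hif1an in 0 of 6.

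Of 25 other hypoxia targets 6 rose and 3 fell (median log2 fold change 0.47), and 11 and 3 did so without WT 3. Anln, a cytokinesis protein also used as a hypoxia marker, rose 5.57-fold (log2 fold change 2.48, edgeR adjusted p = 0.00204), in the same libraries in which all 10 proliferation genes rose. Plod1, a collagen lysyl hydroxylase, fell 2.08-fold (adjusted p = 0.00261), and Angptl4, a secreted inhibitor of lipoprotein lipase, was at 3.66 to 4.71 FPKM in WT and 0.518 to 1.162 in KO and fell 5.75-fold (adjusted p = 0.00406). KO 1 was the lowest KO library in 21 of these 25 genes, and WT 3 the highest WT library in 19.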

How the data were processed

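Libraries were made from 3 µg of RNA, labelled as total RNA, with an Illumina kit, per the labels' protocols. Build mm10, the aligner HISAT2 2.0.5, the counter featureCounts 1.5.0-p3 and, in addition, DESeq2 1.16.1 are listed in the submitters' processing notes. What settings and annotation were used, and how strand and reads with several matches were treated, is not given in the sources used here. Raw read counts per gene were deposited, which the authors had not normalised, and FPKM values that the authors made from the counts, gene length and library total. Each FPKM gave back its count within 0.05 reads, except in 4 of 327192 values, 0 of them in the genes described here.

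The 6 count columns entered 1 model with edgeR 4.0.16 in R 4.3.3. TMM factors ran from 0.961 to 1.04, the filterByExpr defaults left 16606 of 54532 genes, and the two-sided quasi-likelihood F test was adjusted by Benjamini-Hochberg over those genes, with a threshold of 0.05. The SE was taken as the size of the log2 fold change over the root of F. Isozyme shares were compared by an exact permutation test, which cannot go below p = 0.1 with 3 libraries against 3. Total counts of 16764480 to 21983659 put 3 reads at 0.136 to 0.179 CPM, and the biological coefficient of variation was 26.5%. As alternatives served no filter, a filter of 1 CPM in 3 libraries, scaling by RLE or by library totals alone, DESeq2 1.42.0, and, with limma 3.58.1, voom with library quality weights and limma on log2(FPKM + 1) and on log2(FPKM + 0.1), and leaving out each library.

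Promoters are RefSeq windows on GRCm38.p6, from 250 bases before to 50 bases after each start. The members, the neighbouring lists and the tests were chosen with earlier results of these data known. All 39 symbols are accounted for; each gene past the threshold and each with a mean of at least 50 FPKM has its value in every library printed, and of each neighbouring list the up to 3 tested genes with the lowest p are named. A gene that this rule takes is not reported here, and counts over lists include it.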

Additional observations from a re-analysis of the deposited data

How the results depend on the processing

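The number of genes changed, 4812 of 16606 tested, was 5046 of 32290 with no filter, 5565 with DESeq2 and 8052 of 16606 with limma-voom. It ran from 2178 of 16998 (without WT 6) to 6641 of 17365 (without WT 3) when 1 library was left out. For the 10 member rows changed, the count was 20 with no filter, 19 with DESeq2, 30 with limma-voom and from 5 (without WT 6) to 27 (without WT 3), and it was 6 without WT 7 and 6 without KO 2. Counts of transporters, enzymes and hypoxia targets were 2, 10 and 6 with no filter, 2, 10 and 5 with DESeq2, 4, 16 and 8 with limma-voom, and 1 to 4, 3 to 14 and 0 to 7 with a library left out, and the transporters counted 2 with RLE size factors. The neighbouring lists, 29 genes as reported, counted 48 with limma-voom and 15 to 39 with a library left out. The log2 fold change of Gapdh turned to 0.70 with limma-voom, 0.15 on log2(FPKM + 1), 0.24 on log2(FPKM + 0.1), 0.88 without WT 3 and 0.08 without KO 1, and was lowest, -0.43, without WT 6. That of Ankrd37 turned to -0.10 without WT 6, -0.21 without WT 7 and -0.03 without KO 3 (1.58 without WT 3), and that of P4ha2 to -0.012 without KO 3 (2.11 without WT 3). The difference in the share of Slc16a3 turned to -0.451 percentage points without WT 6 and was 21.5 without WT 3. The core together with CACAG (or CTGTG) was in 66.7% of member promoters, against 37.1% of tested genes and 28.4% of all genes. Of 560 comparisons of a gene with a setting, 468 kept direction and side of the threshold, 67 passed only under the setting, 16 no longer passed and 9 reversed; the cause was not tested. The median log2 fold change of all genes was 0.16 with DESeq2 and 0.14 with no filter. No paired analysis was possible because the groups share only 1 replicate number. Depth limits the genes with few reads, such as Ankrd37 with a mean of 74.0 reads in a library.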
